A study of Arabidopsis thaliana with 21 samples.

Results

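Cold and drought responses in Arabidopsis run through a short regulatory chain, and 10 of its best-known genes are described here out of 27444 protein-coding genes annotated by RefSeq on the 5 nuclear chromosomes (TAIR10.1). The genes were given as loci: *ICE1*, *CBF1*, *CBF2*, *CBF3*, *DREB2A*, *COR15A*, *COR47*, *KIN1*, *RD29A* and *RD29B*, and all 10 were found in the annotation. For each gene, every peak touching the gene body or the 1000 bp upstream of its start was taken, and this stretch is called the gene window. A gene counted as having a peak in a library when 1 base or more of a peak lay in its window, and the percent of the window lying under peaks was the measured level.

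The series holds 21 ChIP-seq samples of *Arabidopsis thaliana* Col-0 seedlings, of which 9 came with peak lists: 3 *mbd9-1* libraries for the histone variant H2A.Z, 3 WT libraries for acetylated histone H4 (H4Ac) and 3 WT libraries for H2A.Z. The *mbd9-1* plants carry a single T-DNA allele of *MBD9*, named for its methyl-CpG-binding domain, and the WT plants carry no insertion. All plants were 6 days old, grown at 20 °C with 16 h of light and 8 h of dark, and harvested without their roots, and no cold, drought or abscisic acid treatment appears in the labels. The other 12 samples, which include every *arp6-1* library, were not analysed here. Whole shoots mix many cell types, so a peak in fewer cells and a weaker peak in all cells cannot be told apart.

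In this pathway, ICE1 is a basic helix-loop-helix factor that activates *CBF3* in the cold. The CBF proteins, and DREB2A in drought and heat, are AP2-family factors that bind the CRT/DRE element of target genes. The targets encode hydrophilic protective proteins: COR15A guards chloroplast membranes, COR47 is a dehydrin, KIN1 is a small cold-induced protein, and RD29A and RD29B accumulate in dry, cold or salt-treated tissue. *RD29B* answers mainly to abscisic acid through ABRE elements. H2A.Z replaces H2A in nucleosomes through the SWR1 complex. In Arabidopsis it is known from the first nucleosome of transcribed genes and, spread over the gene body, from genes that are quiet until a stimulus arrives. Acetylation of H4 usually accompanies active or poised chromatin.

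The DNA of 3 target promoters and of 3 stretches under shared peaks is shown, because these genes carry most of the peaks described next. Sequences are from the RefSeq TAIR10.1 genome and read 5′ to 3′ on the strand of the gene. In the promoters, the 250 bp before the annotated start, capitals mark CCGAC, the core of the CRT/DRE, and ACGTG, the core of the ABRE, on either strand (GTCGG and CACGT are the same motifs on the other strand). *RD29A* lies at chr5:21240467-21240716 (+), *RD29B* at chr5:21236771-21237020 (+) and *COR15A* at chr2:17712331-17712580 (−).
RD29A promoter: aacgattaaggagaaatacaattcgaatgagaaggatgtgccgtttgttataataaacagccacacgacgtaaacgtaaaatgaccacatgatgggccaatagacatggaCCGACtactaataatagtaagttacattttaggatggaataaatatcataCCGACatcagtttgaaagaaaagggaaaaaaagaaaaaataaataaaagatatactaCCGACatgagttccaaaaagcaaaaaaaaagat
RD29B promoter: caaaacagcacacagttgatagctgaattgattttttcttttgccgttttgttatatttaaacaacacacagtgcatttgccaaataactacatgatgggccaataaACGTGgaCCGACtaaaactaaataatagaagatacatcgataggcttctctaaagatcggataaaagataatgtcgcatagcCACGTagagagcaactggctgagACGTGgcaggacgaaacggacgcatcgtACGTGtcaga
COR15A promoter: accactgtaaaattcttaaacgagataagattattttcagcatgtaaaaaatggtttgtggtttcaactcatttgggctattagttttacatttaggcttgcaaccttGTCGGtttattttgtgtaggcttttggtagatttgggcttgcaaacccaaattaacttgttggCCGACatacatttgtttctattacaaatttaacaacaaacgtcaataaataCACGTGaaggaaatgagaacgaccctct
*RD29A* held 3 CCGAC and no ACGTG, *RD29B* held 1 CCGAC and 4 ACGTG, and *COR15A* held 2 CCGAC and 1 CACGTG, a palindrome that holds ACGTG on both strands and is taken as 1 site. Among all 10 promoters, CCGAC was present in these 3 only, against 12.0% of 27443 protein-coding promoters of that length. ACGTG was present in 5, the others being *CBF2*, *DREB2A* and *KIN1* with 1 site each, against 22.9% of all promoters. CANNTG, the type of site bound by ICE1-like factors, was present in 6 of 10, against 55.3% of all promoters, and CACGTG counts both as CANNTG and as ACGTG. Only the 250 bp before the annotated start were searched. At *COR47* that start lies 1209 bp before the start codon of the longest transcript. A gene without a match here may hold the motif elsewhere. These matches are a description of the letters and not of bound factors.

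The coding stretches lie under peaks that libraries shared, and capitals mark CG dinucleotides, the sites of CG methylation in plants. The *CBF3* stretch, chr4:13018353-13018652 (−), is from its single exon, lies 749 to 1048 bp after the start and was under a peak in all 3 WT H2A.Z libraries. The *RD29B* stretch, chr5:21238309-21238608 (+), lies 1289 to 1588 bp after the start and was under a peak in all 6 H2A.Z libraries. The *RD29A* stretch, chr5:21242244-21242543 (+), lies 1528 to 1827 bp after the start and was under a peak in 8 of the 9 libraries.
CBF3 coding stretch: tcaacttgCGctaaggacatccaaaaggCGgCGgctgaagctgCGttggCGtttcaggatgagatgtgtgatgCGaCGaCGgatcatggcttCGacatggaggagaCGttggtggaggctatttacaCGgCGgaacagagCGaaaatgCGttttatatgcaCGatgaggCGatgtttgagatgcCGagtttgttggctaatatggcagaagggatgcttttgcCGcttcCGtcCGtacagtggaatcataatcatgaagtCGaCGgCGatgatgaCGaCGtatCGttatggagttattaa
RD29B coding stretch: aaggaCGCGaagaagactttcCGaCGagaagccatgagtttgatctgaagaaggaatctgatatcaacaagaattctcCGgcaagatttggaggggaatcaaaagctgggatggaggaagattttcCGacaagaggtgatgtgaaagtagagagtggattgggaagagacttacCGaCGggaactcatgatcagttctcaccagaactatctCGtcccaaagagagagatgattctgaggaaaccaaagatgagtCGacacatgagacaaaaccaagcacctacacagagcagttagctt
RD29A coding stretch: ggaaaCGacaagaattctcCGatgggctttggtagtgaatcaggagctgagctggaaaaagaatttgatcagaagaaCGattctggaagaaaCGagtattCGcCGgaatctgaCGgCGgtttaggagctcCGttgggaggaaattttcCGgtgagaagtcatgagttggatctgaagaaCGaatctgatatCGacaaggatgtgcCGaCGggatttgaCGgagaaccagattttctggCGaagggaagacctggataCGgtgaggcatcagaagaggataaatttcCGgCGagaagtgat
Over 300 bases each, the *CBF3* stretch held 26 CG, the *RD29B* stretch 10 and the *RD29A* stretch 19.

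In WT seedlings, the widest H2A.Z domains of the 10 genes lay on *RD29B* and *RD29A*, which stand in tandem on chromosome 5 with *RD29B* 1185 bp before the start of *RD29A*. In *mbd9-1* both genes kept H2A.Z peaks, but those on *RD29B* were short and, except for 1 upstream peak, within the gene body. *CBF3* and *COR15A* had H2A.Z peaks in all 3 WT libraries and in none from *mbd9-1*. *COR47* had H2A.Z peaks in 2 *mbd9-1* libraries only. *ICE1*, *CBF1* and *CBF2* had no H2A.Z peak in either genotype. H4Ac peaks were found in all 3 WT libraries at *CBF2* and *RD29A*, in 2 at *CBF1*, and in 1 at *CBF3*, *DREB2A* and *ICE1*.

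**Figure D1:**
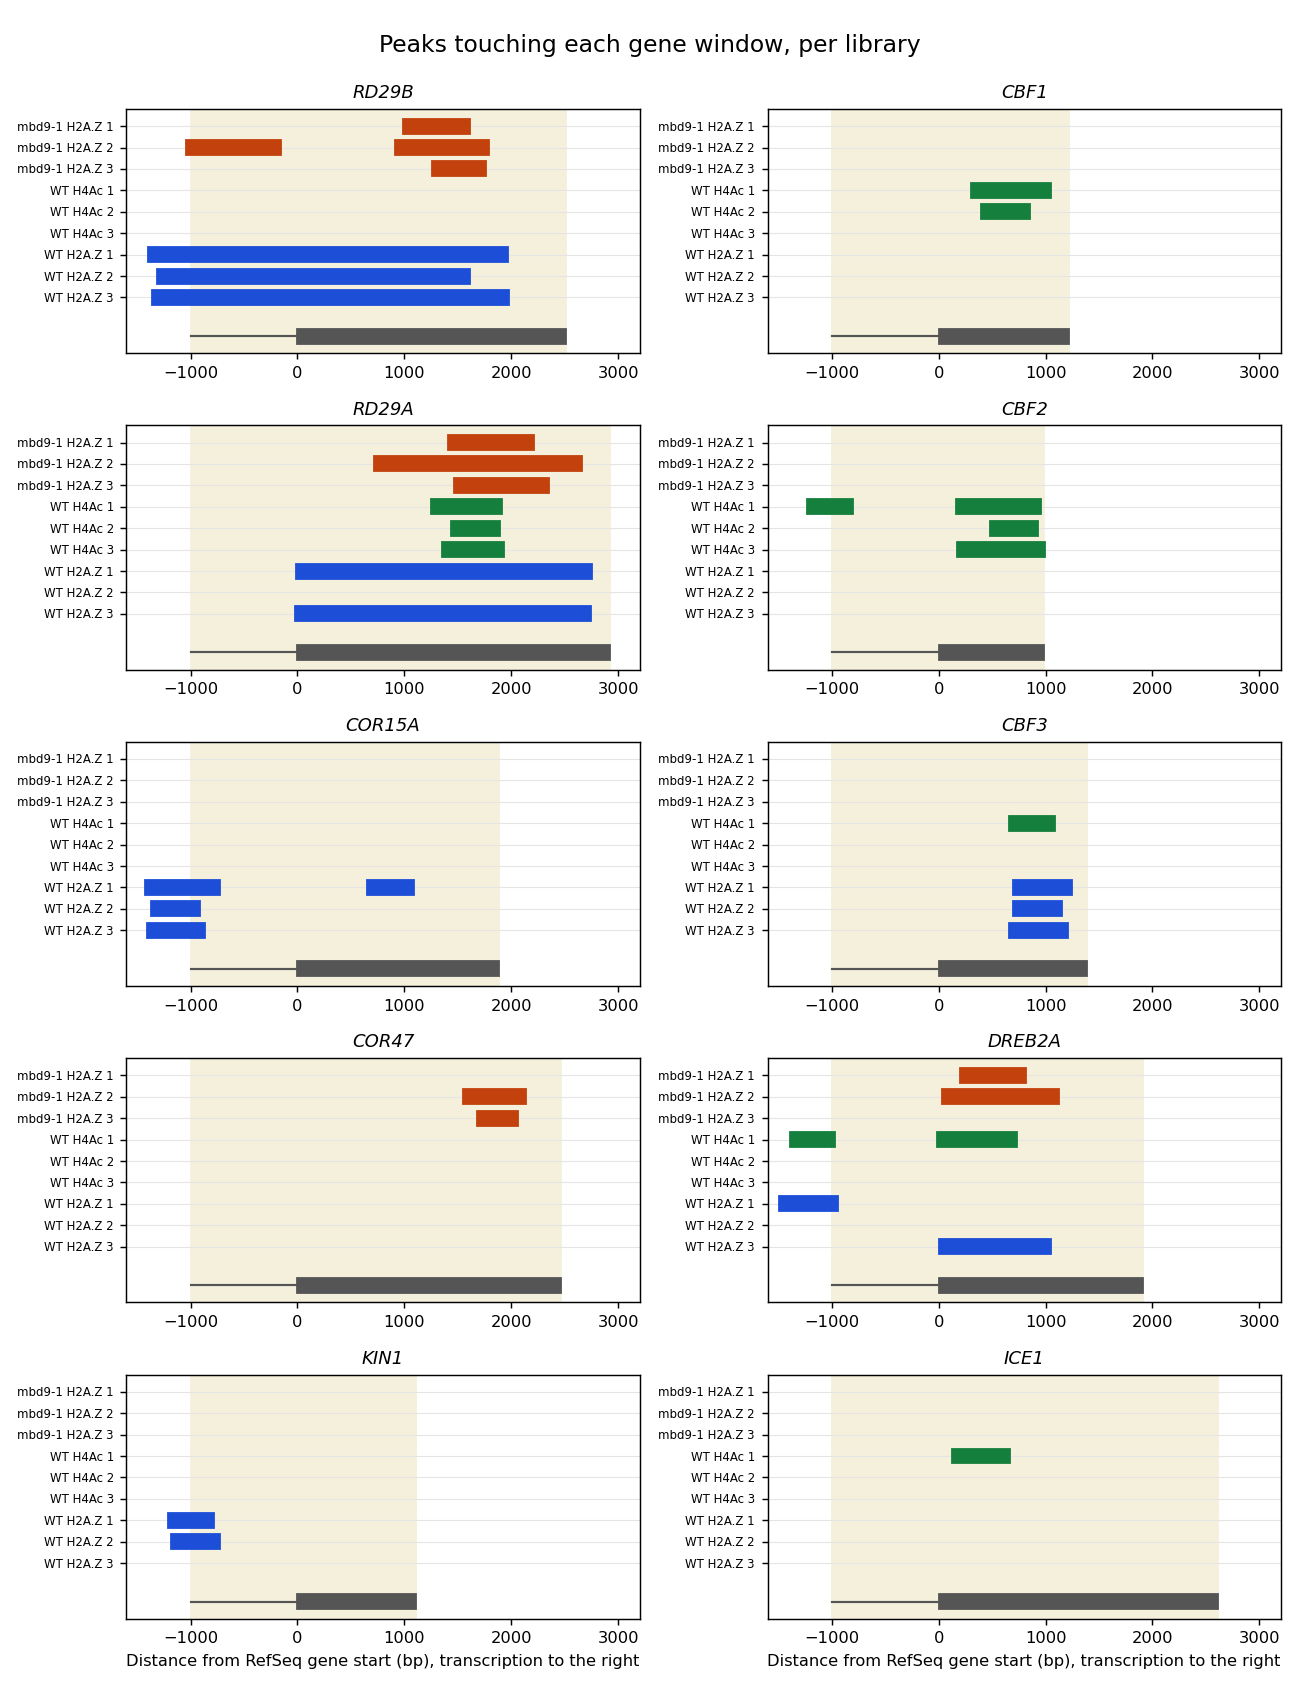
Position of every peak touching the window of each gene. Each panel is 1 gene and each row 1 library (*mbd9-1* H2A.Z in orange, WT H4Ac in green, WT H2A.Z in blue, replicates 1 to 3); the horizontal axis is the distance in bp from the RefSeq gene start, the grey box is the gene body, the thin line the 1000 bp upstream, and the shaded area the window. On *RD29B* the WT H2A.Z peaks run from at least 1309 bp upstream into the gene, while those from *mbd9-1* are short; on *CBF3* and *COR15A* only WT libraries have H2A.Z peaks.

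Several facts of the libraries bear on these calls. The lists held 5215 to 5733 peaks in *mbd9-1* H2A.Z, 10439 to 12030 in WT H4Ac and 6263 to 9260 in WT H2A.Z, and they carry no reads or scores. The study states a minimum of aligned reads for each antibody, but per-library depth was not used here, and no counting interval can be given. The third *mbd9-1* list stood apart, with a median peak width of 381 bp against 620 and 652 bp in the other *mbd9-1* lists. Its bases overlapped those of the other *mbd9-1* lists with a Jaccard index of 0.169 and 0.180, against 0.358 for replicates 1 and 2, and those of the WT H2A.Z lists with 0.0998 to 0.101. The part of list size and width in the differences was not tested beyond the alternatives given. The H2A.Z differences at *RD29B*, *RD29A*, *COR47* and *DREB2A* are also given without the third *mbd9-1* library. So are most counts over genes that include it, a setting chosen for the counts after seeing the data. With 3 libraries against 3 there are 20 arrangements, so the exact two-sided permutation tests used throughout cannot give p below 0.1 and none can pass 0.05. Of 40 peaks touching the 10 windows, 0 touched more than 1 of them. Reads of 50 bases could be placed uniquely, with every 50-base word of the window occurring once in the genome, at *ICE1*, *DREB2A*, *COR15A*, *COR47*, *RD29A* and *RD29B*, and at 98.1% to 99.7% of positions at *CBF1*, *CBF2*, *CBF3* and *KIN1*, which have close relatives.

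Among the targets, *RD29B* (AT5G52300, *LTI65* in RefSeq, chr5:21237021-21239531, 5 exons) had H2A.Z peaks in all 6 libraries. Peaks covered 18.0%, 48.9% and 14.3% of its window in *mbd9-1*, against 84.6%, 74.5% and 84.7% in WT. Every *mbd9-1* library lay below every WT library, with means of 27.0% ± 19.0 in *mbd9-1* and 81.3% ± 5.87 in WT (SD, n = 3 each), a difference of -54.2 points (exact permutation p = 0.1, the smallest possible). Without the third *mbd9-1* library the difference was -47.9 points. The WT peaks were single domains of 3365, 2925 and 3333 bp that took in the whole 1000 bp upstream and 64.4% to 78.7% of the gene body. The *mbd9-1* peaks covered 20.0% to 34.8% of the body, and only replicate 2 had an upstream peak, over 84.3% of the upstream 1000 bp. All 6 lists shared 356 bp centred in the fourth exon (chr5:21238281-21238636), 1260 to 1616 bp after the start, and all 3 WT lists shared 2925 bp. The upstream part of the WT domain also lies over *SHOC1*, a meiotic gene on the opposite strand that comes within 466 bp of the *RD29B* start. H4Ac peaks were at 0 in all 3 WT libraries on *RD29B*, against 81.3% ± 5.87 for H2A.Z, with no overlap (SD, n = 3 each; exact permutation p = 0.1).

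*RD29A* (AT5G52310, *LTI78* in RefSeq, chr5:21240717-21243644, 4 exons) was covered by H2A.Z peaks over 20.4%, 49.7% and 22.8% of its window in *mbd9-1*, against 70.6%, 0% and 70.4% in WT. The second WT library had no peak there, so the groups overlapped and the difference of -16.1 points was smaller than the WT spread (30.9% ± 16.3 in *mbd9-1* and 47.0% ± 40.7 in WT, SD, n = 3 each; exact permutation p = 0.6). It was -4.26 points without WT replicate 1, -4.37 without WT replicate 3, -39.6 without WT replicate 2, -25.4 without *mbd9-1* replicate 2, and -12.0 without *mbd9-1* replicate 3. The 2 WT peaks were 2775 and 2766 bp wide and ran from just before the start to near the end of the gene. Those from *mbd9-1* were 800, 1951 and 896 bp wide and began 1409, 713 and 1462 bp into the gene. H4Ac covered 16.9%, 11.6% and 14.7% of the *RD29A* window, with each peak centred in the fourth exon. When the WT lists were limited to equal numbers of their widest peaks, H4Ac was called there in 0 libraries and H2A.Z in 2. In replicates 1 and 3, whose chromatin was divided between both antibodies, all 664 and all 578 bp under H4Ac lay inside the H2A.Z peak, while in replicate 2 the 454 bp under H4Ac had no H2A.Z peak. The mean H4Ac level of 14.4% ± 2.69, against 47.0% ± 40.7 for H2A.Z (SD, n = 3 each), did not differ beyond the spread (exact permutation p = 0.4), and the difference was -20.8 points without WT H2A.Z replicate 1 and -56.1 without replicate 2.

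*COR15A* (AT2G42540, chr2:17710441-17712330, 2 exons) had 0% of its window under H2A.Z in the 3 *mbd9-1* libraries, against 24.7%, 3.11% and 4.84% in WT. The groups did not overlap (0% in *mbd9-1* and 10.9% ± 12.0 in WT, SD, n = 3 each; exact permutation p = 0.1). Without WT replicate 1 the difference was -3.98 points. The call rests on the far end of the window. The peaks shared by the 3 WT lists lay 1371 to 910 bp upstream, within AT2G42550, a gene on the opposite strand whose nearer end is 865 bp from the *COR15A* start, and only 90 and 140 bp of them fell in the window in replicates 2 and 3. In the body of *COR15A* itself, only WT replicate 1 had a peak, 655 to 1094 bp after the start in the second exon. When 200 bp of a peak, or its centre, had to lie in the window, the call remained in 1 WT library. H4Ac was at 0% in all 3 WT libraries at *COR15A*, below every WT H2A.Z library (exact permutation p = 0.1, n = 3 each).

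*COR47* (AT1G20440, chr1:7084409-7086873, 2 exons) was the reverse case, with H2A.Z over 0%, 17.0% and 11.0% of its window in *mbd9-1* and 0% in all 3 WT libraries. The groups shared the value 0 (9.32% ± 8.61 in *mbd9-1* and 0% in WT, SD, n = 3 each; exact permutation p = 0.4). Both peaks were centred in the second exon and shared 381 bp, 1683 to 2064 bp after the start. Without the third *mbd9-1* library the difference was 8.48 points, and without the second it was 5.50 points, each resting on a single peak. No H4Ac peak touched *COR47*.

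*KIN1* (AT5G15960, chr5:5209717-5210826, 3 exons) had no peak of any kind in its gene body. H2A.Z covered 0% of its window in all 3 *mbd9-1* libraries, against 10.6%, 13.2% and 0% in WT, where the peaks lay 1215 to 722 bp upstream, in the gap to the next gene. The groups shared the value 0 (0% in *mbd9-1* and 7.93% ± 6.99 in WT, SD, n = 3 each; exact permutation p = 0.4), and no H4Ac peak was found. The 2 WT peaks were among the narrow ones, of 439 and 461 bp, and neither was kept when peaks up to the most common width of each list were left out.

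**Figure D2:**
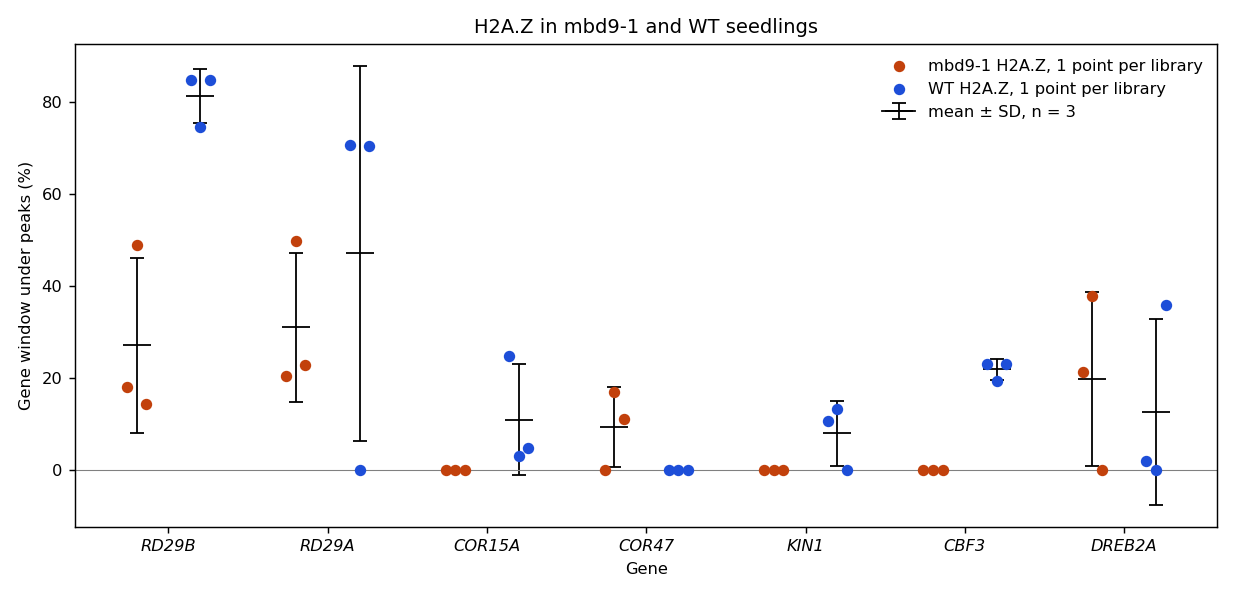
Percent of each gene window under H2A.Z peaks (vertical axis) for the 7 genes with any H2A.Z peak (horizontal axis), *mbd9-1* to the left of WT. Points are single libraries, and the bars give the mean ± SD of 3 libraries. On *RD29B* all *mbd9-1* points (14.3% to 48.9%) lie below all WT points (74.5% to 84.7%), and on *CBF3* and *COR15A* all *mbd9-1* points are at 0. On *RD29A* and *DREB2A* the groups overlap, and on *COR47* and *KIN1* they share the value 0.

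Among the transcription factors, the 3 *CBF* genes stand in a row on chromosome 4 and encode very similar proteins, yet their peaks differed. *CBF3* (AT4G25480, *DREB1A* in RefSeq, chr4:13018010-13019400, 1 exon) had 0% of its window under H2A.Z in all 3 *mbd9-1* libraries, against 23.1%, 19.3% and 23.1% in WT. The groups did not overlap, and the WT values differed little among themselves (0% in *mbd9-1* and 21.8% ± 2.20 in WT, SD, n = 3 each; exact permutation p = 0.1). The WT peaks of 552, 461 and 552 bp shared 461 bp centred in the coding sequence, 697 to 1158 bp after the start, which includes the stretch printed above. These are narrow peaks for their lists, whose median widths were 668, 587 and 635 bp. When each of the 6 H2A.Z lists was limited to as many of its widest peaks as the shortest list holds, 1 of the 3 WT libraries kept its peak on *CBF3*. H4Ac covered 17.7%, 0% and 0% of the *CBF3* window, in every library below H2A.Z (5.91% ± 10.2 for H4Ac and 21.8% ± 2.20 for H2A.Z, SD, n = 3 each; exact permutation p = 0.1). In replicate 1, 392 of the 424 bp under H4Ac lay inside the H2A.Z peak.

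*CBF2* (AT4G25470, chr4:13015250-13016235, 1 exon) had the opposite make-up, with no H2A.Z peak in any of the 6 libraries and an H4Ac peak in all 3. H4Ac covered 49.8%, 22.9% and 41.1% of its window, against 0% for H2A.Z in WT (37.9% ± 13.7 for H4Ac and 0% for H2A.Z, SD, n = 3 each; exact permutation p = 0.1). The H4Ac peaks shared 454 bp centred in the coding sequence, 476 to 930 bp after the start, and replicate 1 had a further peak upstream, centred over the lncRNA gene AT4G07385. *CBF1* (AT4G25490, chr4:13021780-13022996, 1 exon) likewise had no H2A.Z peak and had H4Ac over 33.9%, 20.5% and 0% of its window. These groups shared the value 0 (18.1% ± 17.1 for H4Ac and 0% for H2A.Z, SD, n = 3 each; exact permutation p = 0.4), and the mean difference was 10.2 points without H4Ac replicate 1. The *CBF1* peaks, too, were centred in the coding sequence, with 454 bp in common. When the WT lists were limited to equal numbers of their widest peaks, H4Ac was called in 2 libraries at *CBF2* and in 0 at *CBF1*.

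*DREB2A* (AT5G05410, chr5:1602205-1604112, 2 exons) had H2A.Z peaks in 2 libraries of each genotype. H2A.Z covered 21.3%, 37.8% and 0% of its window in *mbd9-1*, against 1.89%, 0% and 35.9% in WT. The groups overlapped, and the difference of 7.08 points was far below the spread (19.7% ± 18.9 in *mbd9-1* and 12.6% ± 20.2 in WT, SD, n = 3 each; exact permutation p = 0.8). Its direction changed to -1.96 points without *mbd9-1* replicate 2, and it was 16.9 points without *mbd9-1* replicate 3. The peaks of *mbd9-1* replicates 1 and 2 and of WT replicate 3 shared 618 bp, 196 to 814 bp after the start, whereas that of WT replicate 1 lay upstream, over AT5G05400. H4Ac covered 26.7%, 0% and 0% of the *DREB2A* window.

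*ICE1* (AT3G26744, chr3:9832667-9835279, 5 exons), the regulator at the head of the chain, had no H2A.Z peak in the *mbd9-1* or the WT libraries. H4Ac covered 14.8%, 0% and 0% of its window, through 1 peak near the start, 128 to 664 bp into the gene. The mean was 4.95% ± 8.57 for H4Ac and 0% for H2A.Z (SD, n = 3 each, exact permutation p = 1.0). With a single library above 0, every arrangement gives the same absolute difference, so this test cannot compare the levels.

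**Figure D3:**
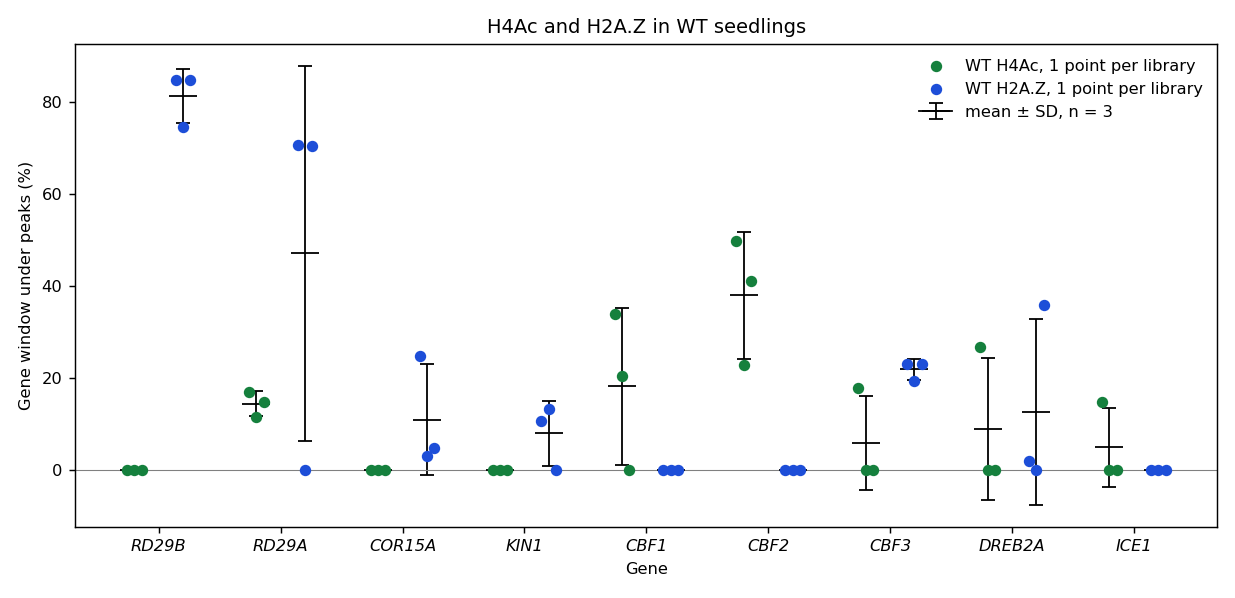
Percent of each gene window under peaks in WT seedlings (vertical axis) for the 9 genes with a peak of either antibody in WT (horizontal axis), H4Ac to the left of H2A.Z. Points are single libraries, and the bars give the mean ± SD of 3 libraries. All H4Ac points lie above all H2A.Z points on *CBF2*, and below them on *RD29B*, *COR15A* and *CBF3*.

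Ordered by mean H2A.Z level in WT, the genes ran from *RD29B* (81.3%) through *RD29A* (47.0%), *CBF3* (21.8%), *DREB2A* (12.6%), *COR15A* (10.9%) and *KIN1* (7.93%) to 0% at *COR47*, *ICE1*, *CBF1* and *CBF2*. The libraries of *RD29B* all lay above those of *RD29A*. Below that, the ranges of neighbouring genes overlapped or shared the value 0. In *mbd9-1* the order began with *RD29A* (30.9%), *RD29B* (27.0%), *DREB2A* (19.7%) and *COR47* (9.32%), of which each neighbouring pair overlapped, and the other 6 genes were at 0%. For H4Ac in WT, *CBF2* (37.9%) came first, followed by *CBF1* (18.1%), *RD29A* (14.4%), *DREB2A* (8.91%), *CBF3* (5.91%) and *ICE1* (4.95%), with *COR15A*, *COR47*, *KIN1* and *RD29B* at 0%. The values of *CBF2* and *CBF1* overlapped, and so did those of each following pair.

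Set against all 27444 protein-coding genes, whose windows may share peaks with neighbours, the 10 genes compared as follows. An H2A.Z peak in all 3 *mbd9-1* libraries was found at 2 of the 10 (*RD29A* and *RD29B*) and at 7.07% of all genes, and one in all 3 WT libraries at 3 of the 10 (*CBF3*, *COR15A* and *RD29B*) and at 17.8% of all genes. A peak in all 3 WT and in no *mbd9-1* library was found at 2 of the 10 (*CBF3* and *COR15A*) and at 5.31% of all genes, and the reverse at 0 of the 10 and at 0.630% of all genes. As given above, the WT call at *COR15A* remained in 1 library with the 200 bp or centre rule. That at *CBF3* remained in 1 library with equal H2A.Z lists. The shares over all genes are not given for these settings. Every *mbd9-1* library lay below every WT library at 3 of the 10 (*CBF3*, *COR15A* and *RD29B*) and at 9.95% of all genes, and above at 0 of the 10 and at 1.21%. No H2A.Z peak in any of the 6 libraries was seen at 3 of the 10 (*ICE1*, *CBF1* and *CBF2*) and at 44.5% of all genes. Without the third *mbd9-1* library, a peak in all *mbd9-1* libraries was found at 3 of the 10 (*DREB2A*, *RD29A* and *RD29B*) and at 13.9% of all genes, a peak in all 3 WT and no *mbd9-1* library at the same 2 and at 5.96%, and the reverse at 0 and at 1.76%. Every *mbd9-1* library was then below every WT library at the same 3 genes and at 10.2% of all genes, and above at 0 and at 5.01%. Whether these counts differ from the shares over all genes was not tested.

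For H4Ac, a peak in all 3 WT libraries was found at 2 of the 10 (*CBF2* and *RD29A*) and at 38.9% of all genes, and no peak in any at 4 of the 10 (*COR15A*, *COR47*, *KIN1* and *RD29B*) and at 43.5% of all genes. Every H4Ac library lay above every H2A.Z library at 1 of the 10 (*CBF2*) and at 32.9% of all genes, and below at 3 of the 10 (*CBF3*, *COR15A* and *RD29B*) and at 11.9%. The median difference between *mbd9-1* and WT H2A.Z was -3.97 points over the 10 genes, with 5 lower, 2 higher and 3 equal, and 0 over all genes, of which 38.2% were lower and 17.3% higher. The median difference between H4Ac and H2A.Z in WT was -5.80 points over the 10 genes, with 6 lower and 3 higher, and 0 over all genes, of which 29.6% were lower and 49.2% higher.

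Summed over the 10 windows, peaks covered 7.06%, 18.4% and 6.13% of the bases in *mbd9-1* H2A.Z, 14.3%, 4.69% and 4.80% in WT H4Ac, and 25.1%, 11.9% and 25.8% in WT H2A.Z. The mean was 10.5% ± 6.86 in *mbd9-1* H2A.Z, against 3.99% over the windows of all protein-coding genes, 7.92% ± 5.50 in WT H4Ac, against 12.3%, and 20.9% ± 7.84 in WT H2A.Z, against 6.98% (SD, n = 3 each). The number of the 10 genes with a peak was 3, 4 and 3 in *mbd9-1* H2A.Z, against 20.6%, 23.7% and 15.9% of all protein-coding genes. It was 6, 3 and 2 in WT H4Ac, against 51.8%, 46.5% and 46.0% of all genes, and 6, 4 and 5 in WT H2A.Z, against 37.7%, 26.0% and 32.5%. *RD29A* and *RD29B*, which have the longest H2A.Z peaks, together weigh most in the summed H2A.Z coverage. In WT, H2A.Z covered 2971, 2616 and 2975 bp of the *RD29B* window and 2775, 0 and 2766 bp of the *RD29A* window. The largest value at any other gene in WT was 1043 bp, at *DREB2A* in replicate 3. Whether the other genes alone lie above all protein-coding genes was not tested. The peaks touching the windows numbered 11 in *mbd9-1* H2A.Z, 10 of them centred in the gene body, 13 in WT H4Ac, 11 of them in the body, and 16 in WT H2A.Z, 10 of them in the body.

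**Figure D4:**
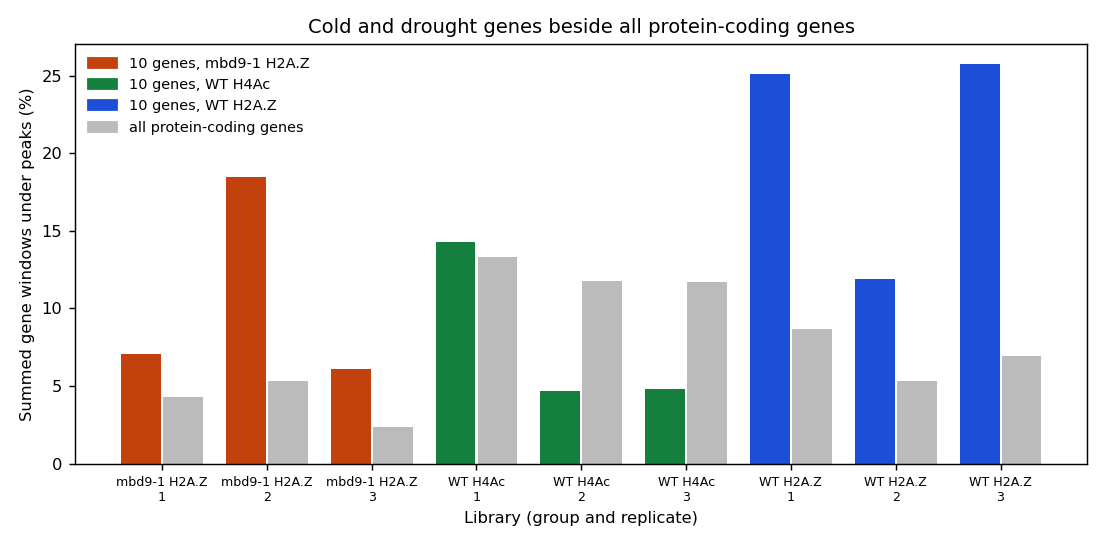
Percent of summed gene windows under peaks (vertical axis) in each library (horizontal axis, group and replicate), for the 10 cold and drought genes (coloured bars) and for all protein-coding genes (grey bars). In each H2A.Z library the coloured bar is taller than the grey one, and in H4Ac replicates 2 and 3 it is shorter (4.69% and 4.80% for the 10 genes). *RD29A* and *RD29B* together weigh most in the coloured bars of the H2A.Z libraries.

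The limit of 1000 bp set some calls. With 2000 bp upstream, *CBF2* gained H2A.Z peaks in 2 WT libraries, which are those on the neighbouring *CBF3*, *CBF1* gained an H4Ac peak in the third library, *DREB2A* was called for H2A.Z in all 3 WT libraries, and *COR47* gained H4Ac peaks in all 3 WT libraries, in a stretch that holds part of *ERD10*, a dehydrin gene 1029 bp upstream. Just inside the limit lay the peaks of *DREB2A* in WT replicate 1, which ended 945 bp upstream (55 bp in the window), and of *COR15A* in WT replicates 2 and 3, which ended 910 and 860 bp upstream.

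A further list of 37 genes of cold, drought and abscisic acid signalling was read in the same way. It was drawn up from their known roles, but with earlier results of these data known. Whether its shares differ from those over all genes was not tested. An H2A.Z peak was present in all 3 *mbd9-1* libraries at 3 of 37 genes (*CBF4*, *DDF2* and *DREB2B*, 8.11%, against 7.07% of all genes). It was present in all 3 WT libraries at 9 (*DRIP1*, *DRIP2*, *GRF7*, *HOS15*, *CBF4*, *DDF1*, *RAB18*, *LTI30* and *RD22*, 24.3%, against 17.8%), and at 19 there was none in any of the 6 (51.4%, against 44.5%). *DRIP1*, an E3 ligase that removes DREB2A, was the single gene with H2A.Z in all WT and no *mbd9-1* libraries (2.70% of 37, against 5.31% of all genes). It was at 0% in *mbd9-1*, against 21.8%, 16.5% and 18.6% in WT. *DREB2B*, the close relative of *DREB2A*, was the single gene with the reverse pattern (2.70% of 37, against 0.630% of all genes). It was at 16.6%, 22.7% and 17.2% in *mbd9-1*, against 0% in WT. *CBF4*, a drought-responsive relative of the *CBF* genes, had H2A.Z in all 6 libraries, over 39.0%, 48.5% and 42.5% of its window in *mbd9-1*, against 0.302%, 30.0% and 36.0% in WT. Its call in all 6 libraries thus rests on 0.302% of the window in WT replicate 1. At *RD22*, too, the WT peaks covered little of the window (3.72%, 4.44% and 3.24%). No alternative overlap rule is given for this list. For both *DREB2B* and *CBF4*, every *mbd9-1* library lay above every WT library, as it did at *DDF2*, so that 3 of 37 genes showed this order, against 1.21% of all genes, while 5 of 37 showed the reverse (*DRIP1*, *DRIP2*, *DDF1*, *LTI30* and *RD22*), against 9.95%. H4Ac peaks were in all 3 WT libraries at 14 of 37 genes (37.8%, against 38.9% of all genes) and in none at 16 (43.2%, against 43.5%), shares close to those of all genes. The 16 include *CBF4*, *DDF1*, *DDF2* and *DREB2B*. At 8 genes, among them the galactinol synthase genes *GOLS1*, *GOLS2* and *GOLS3*, no peak of either antibody was found (21.6% of 37, against 16.9% of all genes and 0 of the 10 genes above). Without the third *mbd9-1* library, an H2A.Z peak in all *mbd9-1* libraries was found at 7 of 37 genes and at 13.9% of all genes. A peak in all 3 WT and no *mbd9-1* library was then at 2 (*DRIP1* and *RD22*, 5.41% of 37, against 5.96% of all genes). The reverse was still at *DREB2B* (2.70% of 37, against 1.76% of all genes). *CBF4*, *DDF2* and *DREB2B* were then again above every WT library (8.11% of 37), and the 5 genes named as below were again below (13.5%). The shares over all genes in this setting were 5.01% above and 10.2% below.

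The gene most like each of the 7 with H2A.Z in at least 2 libraries was sought among protein-coding genes over 5000 bp away, by the mean absolute difference in percent of window over the 9 libraries. It was *ANT1* for *CBF3* (1.14 points), *GLR2.2* for *DREB2A* (3.87 points), AT5G03550 for *COR15A* (0.891 points), AT1G15790 for *COR47* (0.326 points) and AT1G13130 for *KIN1* (0.0730 points). It was AT3G08660 for *RD29A*, the least matched (7.35 points), and AT4G39753 for *RD29B* (3.80 points). AT4G39753 had H2A.Z over 0%, 49.2% and 16.3% of its window in *mbd9-1*, against 82.9%, 68.9% and 78.2% in WT, and like *RD29B* it had no H4Ac peak. All 9 libraries, those of H4Ac included, entered the measure that picked it, so these values are not a further likeness.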

How the data were processed

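ChIP-seq libraries of *mbd9-1* (H2A.Z) and WT (H2A.Z and H4Ac) seedlings were used, with 3 biological replicates each. Per the labels and the study's methods, the authors aligned their single-end reads with Bowtie2 to the TAIR10 genome and ran HOMER on each library against input to call peaks; tool versions are not stated there. The deposited lists hold only positions (chromosome, start and end of each peak) and no counts, scores or p-values, so the lists do not show depth (the study states a minimum of reads per antibody, and read numbers were not used here); reads were not scaled, and a shallower library can have fewer or narrower peaks. Starts were read as counted from 0. All peaks fell within the chromosomes of RefSeq TAIR10.1, whose gene models were used.

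Coverage of gene windows was computed with Python 3.11.15, NumPy 2.4.6 and pandas 2.3.3, tested on simulated lists, and drawn with matplotlib 3.10.9. Groups were compared with two-sided exact permutation tests of the mean. The WT H4Ac and H2A.Z libraries of 1 number come from the same sheared chromatin and are paired by it; their deviations from the group means correlated at -0.00334, 0.00780 and 0.0134 over 27444 genes. The genes named in the text are the 10 loci, genes of the 37-gene list called in all libraries of a genotype and none or all of the other, the most alike gene of each locus and direct neighbours sharing its peaks. Genes listed beside a count were named after their values were seen. The loci and lists were chosen with earlier results of these data known. Alternatives changed the overlap rule, the window, the peaks kept and the libraries; leaving *mbd9-1* replicate 3 out of the counts over genes was added after seeing the data.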

Additional observations from a re-analysis of the deposited data

How the results depend on the processing

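The number of the 10 genes with an H2A.Z peak differed by -1.67 between *mbd9-1* and WT (means of 3.33 and 5 per library, beside 20.0% and 32.1% of all protein-coding genes), and this count moved with the setting. It was -0.667 when at least 200 bp of a peak or its centre had to lie in the window, and also without peaks up to the most common width of each list. It was 0 with the gene body only and with H2A.Z lists limited to equal numbers of their widest peaks, and -2.67 with 2000 bp upstream. The upstream peaks of *COR15A* and *KIN1* are absent with the gene body only. Leaving out 1 library gave -2.17 to -1.17. The corresponding difference between H4Ac and H2A.Z in WT was -1.33, turned to 0.333 with the gene body only was -0.333 with the 200 bp or centre rule, and was -3.67 with WT lists limited to equal numbers of peaks. Leaving out 1 library gave -2.5 (without H4Ac replicate 1) to -0.5 (without H4Ac replicate 3). Summed coverage differed by -10.4 points between *mbd9-1* and WT H2A.Z (-14.9 to -7.96 with 1 library left out) and by -13.0 points between H4Ac and H2A.Z in WT (-17.5 to -10.6), with the same direction in all alternatives run. No alternative left out a gene. Between antibodies, 6 genes were lower and 3 higher, with -81.3 points at *RD29B*, -32.6 at *RD29A* and 37.9 at *CBF2*. Whether either direction holds without *RD29A* and *RD29B*, which weigh most in summed H2A.Z coverage, was not tested. Of 16 differences at single genes, those at *DREB2A* turned direction: the difference between *mbd9-1* and WT was -1.96 without *mbd9-1* replicate 2 (up to 18.7 with 1 other library left out) and -0.495 with 2000 bp upstream, and that between H4Ac and H2A.Z was 0.774 without H4Ac replicate 2 or 3 and 7.96 without WT H2A.Z replicate 3 (down to -12.6 with 1 other library left out). At *KIN1*, both differences fell to 0 with the gene body only and without peaks up to the most common width. The *KIN1* difference between genotypes was also 0 with equal H2A.Z lists. At *CBF1* and *ICE1*, the difference between H4Ac and H2A.Z fell to 0 with equal WT lists. The *CBF3* difference between *mbd9-1* and WT moved from -21.8 to -7.70 points with equal H2A.Z lists. The causes were not tested.

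With the replicate number as a block (replicate block), the differences are the same, -1.67 genes and -10.4 points between genotypes and -1.33 genes and -13.0 points between antibodies. The smallest exact p is then 0.25, and no call changed. Between *mbd9-1* and WT the same number marks no shared material, and same-numbered libraries deviated with correlations of 0.0251, -0.162 and 0.0292. The lists carry no reads, so a missing peak is not evidence that the mark was absent.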
